A study of Sus scrofa with 2 samples.

Results

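The cells described here were the barcodes of 2 porcine antral follicles that carried transcripts of CEMIP and CCDC80. Members were chosen from raw UMI counts, a UMI (unique molecular identifier) being the tag that marks 1 captured RNA molecule. A barcode counted as a member when it had 2000 to 5000 detected genes, under 7% of its UMIs from the 13 mitochondrial genes, and 5 or more UMIs of CEMIP and CCDC80 together. This gave 434 members among 17205 barcodes within the limits and 29837 barcodes in all. They were found in follicle AF76, where they made up 434 of 7843 barcodes within the limits (5.53%, exact binomial 95% interval 5.04 to 6.06%). In follicle AF75 there were 0 members among 9362 barcodes, so a share of at most 0.0320% is allowed by 3 counts, and the highest sum of the 2 genes in any barcode within the limits was 4. The members were compared with the barcodes of AF76 within the same limits that had no UMI of either gene, 6524 in number and called the reference below. The 9280 such barcodes of AF75 are given beside them.

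Granulosa cells line the follicle and surround the oocyte. Under follicle-stimulating hormone they divide, produce inhibins and convert androgens to oestradiol, and after the luteinizing hormone surge mural cells release EGF-like ligands such as AREG while cumulus cells build a hyaluronan matrix. In follicles that are not selected for ovulation the granulosa cells undergo atresia, and FOXO transcription factors and their targets are known to be active in cells deprived of growth factor signals. CEMIP binds hyaluronan and takes part in its breakdown, and CCDC80 is a secreted protein of the extracellular matrix.

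Both follicles came from 1 Landrace × Yorkshire pig of 210 days that had received pregnant mare serum gonadotropin, and both exceeded 7 mm in diameter. The cells were granulosa cells flushed from the punctured follicle, each follicle giving 1 library on the droplet platform of 10x Genomics, with 125409747 UMIs in AF75 and 127414267 in AF76. With 1 library per follicle there is no replicate, so no difference was tested, and every interval below covers counting error only. The follicle cannot be told apart from its library, and 56 barcode sequences occurred in both libraries, 1 of them in a member.

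CEMIP lies at chr7:49622534-49792547 and CCDC80 at chr13:147203333-147244753 on Sscrofa11.1, the build of the deposited counts. SELENOP lies at chr16:27537885-27547863, FBXO32 at chr4:15895875-15925929 and CRABP2 at chr4:93388198-93393861. The 250 bases before the RefSeq start of the 2 genes that chose the cells and of SELENOP, the most abundant of the other markers, are shown here 5′ to 3′ on the strand of the gene. Capitals mark matches, on either strand, to the short motifs GTAAACA (forkhead), AAGGTCA (nuclear receptor site), TGACTCA (AP-1), GGAATG (TEAD), CACGTG (E-box) and TATAAA.
CEMIP (chr7:49622284-49622533, plus strand): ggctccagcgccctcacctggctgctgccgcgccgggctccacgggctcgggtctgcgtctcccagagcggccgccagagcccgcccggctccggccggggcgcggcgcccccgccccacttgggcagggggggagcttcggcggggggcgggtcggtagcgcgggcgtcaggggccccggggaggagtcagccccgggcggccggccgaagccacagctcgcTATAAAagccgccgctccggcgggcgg
CCDC80 (chr13:147203083-147203332, plus strand): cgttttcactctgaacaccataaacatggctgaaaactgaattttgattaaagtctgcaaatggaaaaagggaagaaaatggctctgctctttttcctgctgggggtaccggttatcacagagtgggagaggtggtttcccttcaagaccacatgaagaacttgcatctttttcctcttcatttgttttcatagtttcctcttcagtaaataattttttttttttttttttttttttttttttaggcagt
SELENOP (chr16:27547864-27548113, minus strand): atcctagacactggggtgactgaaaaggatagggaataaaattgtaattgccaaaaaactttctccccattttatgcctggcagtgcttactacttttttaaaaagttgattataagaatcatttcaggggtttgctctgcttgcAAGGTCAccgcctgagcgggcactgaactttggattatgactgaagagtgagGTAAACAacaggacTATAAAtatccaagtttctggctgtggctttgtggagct
The CEMIP window held TATAAA, which occurred in 9.76% of 19509 such windows, and the SELENOP window held it too, with the forkhead motif (2.28% of windows) and the nuclear receptor site (3.19%). None of the 6 motifs was found in the CCDC80 window. The matches do not overlap each other and are a description of the letters, since no binding was measured.

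Among the 434 members, 206 had UMIs of both genes (47.5%), 152 had CCDC80 without CEMIP and 76 had CEMIP without CCDC80. The median sum was 16 UMIs and the highest 128. Summed over members, CEMIP stood at 1231 CPM (the unit of all levels here, a gene's UMIs over all UMIs of its group on the usual CPM scale) and CCDC80 at 1289 CPM, values that the rule itself fixed. The threshold cut through a continuous range: 38 barcodes of AF76 had a sum of 4 and 41 had a sum of 5. The barcodes with 4 UMIs carried SELENOP at 1403 CPM and FBXO32 at 235 CPM, and those with 5 carried them at 1510 and 283 CPM.

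The remaining label markers, which the rule did not use, were higher in the upper bins of CEMIP and CCDC80 together. The label that names these genes was itself drawn from these libraries. SELENOP, a plasma selenium carrier, stood at 50.8 CPM in barcodes with no UMI of the 2 genes, 124 CPM with 1 UMI, 687 CPM with 2 and 1547 CPM with 3 to 4, and between 1568 and 2559 CPM in the 4 bins of members. FBXO32, a ubiquitin ligase of muscle atrophy, went from 5.54 CPM in the first bin to 318 CPM at 5 to 9 UMIs and 535 CPM at 20 to 39. INHA, the inhibin alpha subunit, went the other way, from 24118 CPM with no UMI to 9378 CPM at 5 to 9 and 3485 CPM at 40 or more. Between these it was level, at 4531 CPM at 10 to 19 and 4545 CPM at 20 to 39. The group 4 of members described below had a median sum of 9 and INHA at 17914 CPM, against 2094 CPM in the other members. In AF75, where 76 barcodes had 1 UMI, SELENOP stood at 19.7 CPM in those and 24.3 CPM in the reference.

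**Figure D1:**
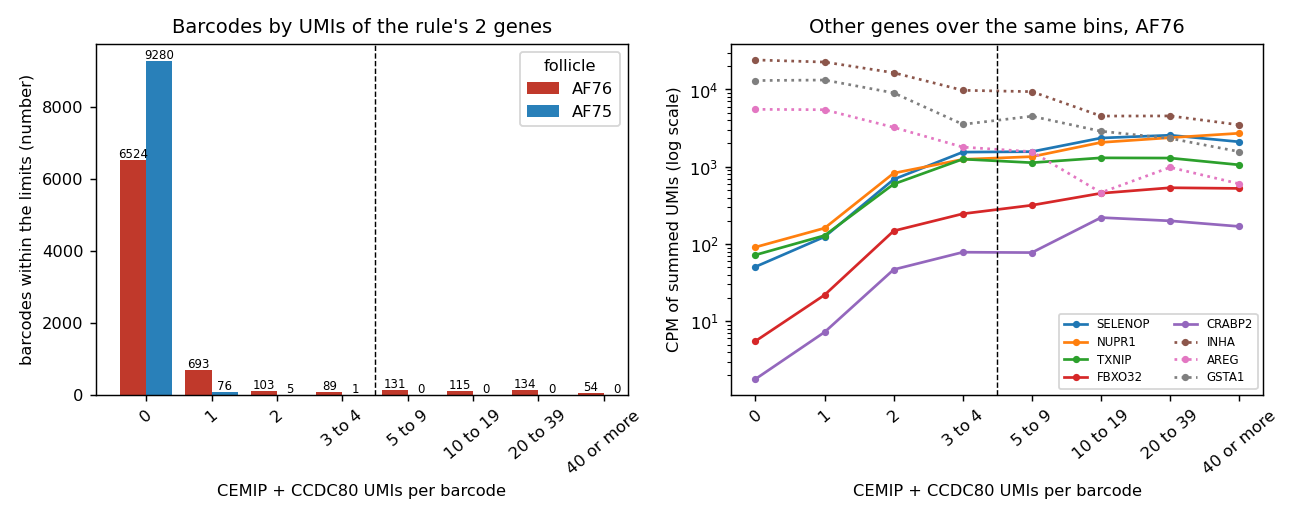
Left, the number of barcodes within the limits by their UMIs of CEMIP and CCDC80 for AF76 and AF75, with a dashed line at the limit of 5; right, CPM of 8 other genes (log scale) over the same bins in AF76. No barcode of AF75 lay right of the line, and SELENOP, NUPR1, TXNIP, FBXO32 and CRABP2 were higher, and INHA, AREG and GSTA1 lower, in the 4 bins of members than at 0 UMIs.

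DEFB1, FBXO32 and CRABP2 were also counted cell by cell. Of the members, 40.1% (35.4 to 44.9%) had 5 or more UMIs of DEFB1, FBXO32 and CRABP2 together, against 5.76% of the 885 barcodes of AF76 with 1 to 4 UMIs of the rule's genes, 0.368% of the reference (24 barcodes) and 0.0431% of the AF75 reference (4 barcodes). The members reached this share with shallower profiles, at a median of 6912 UMIs (4305 to 24434) against 14144.5 in the reference and 11243.5 in the AF75 reference.

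Members had fewer detected genes than the reference, with medians of 2701.5 and 3506. With every cell thinned to 5000 UMIs the order turned, with 2171 genes in members, 1942 in the reference and 1971 in the AF75 reference. Thinning left out 35, 40 and 19 cells. The mitochondrial share was alike, with medians of 2.72% in members, 2.99% in the reference and 2.58% in the AF75 reference. Ribosomal protein genes took 12.7% of UMIs in members against 10.1% and 9.31%, and the 50 most abundant genes of a cell took 22.2% against 28.0% in each reference.

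Members were then compared with the reference across 8973 genes whose mean CPM over the 2 groups was at least 5. At least 2-fold higher in members were 1679 genes (18.7%) and at least 2-fold lower 485 (5.41%). The median gene was itself 1.25-fold higher, a log2 ratio of 0.32. Relative to that median, 1063 genes were at least 2-fold higher (11.8%) and 838 at least 2-fold lower (9.34%), so the share of higher among the genes past 2-fold was 77.6% on the CPM scale and 55.9% on the median scale. Between the references of AF76 and AF75 the same limit was passed by 4 genes upward (0.0471%) and 105 downward (1.24%) of 8493. Set against the AF75 reference, the same members were at least 2-fold higher in 16.3% and at least 2-fold lower in 5.68% of 9008 genes. Both comparisons share the members.

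**Figure D2:**
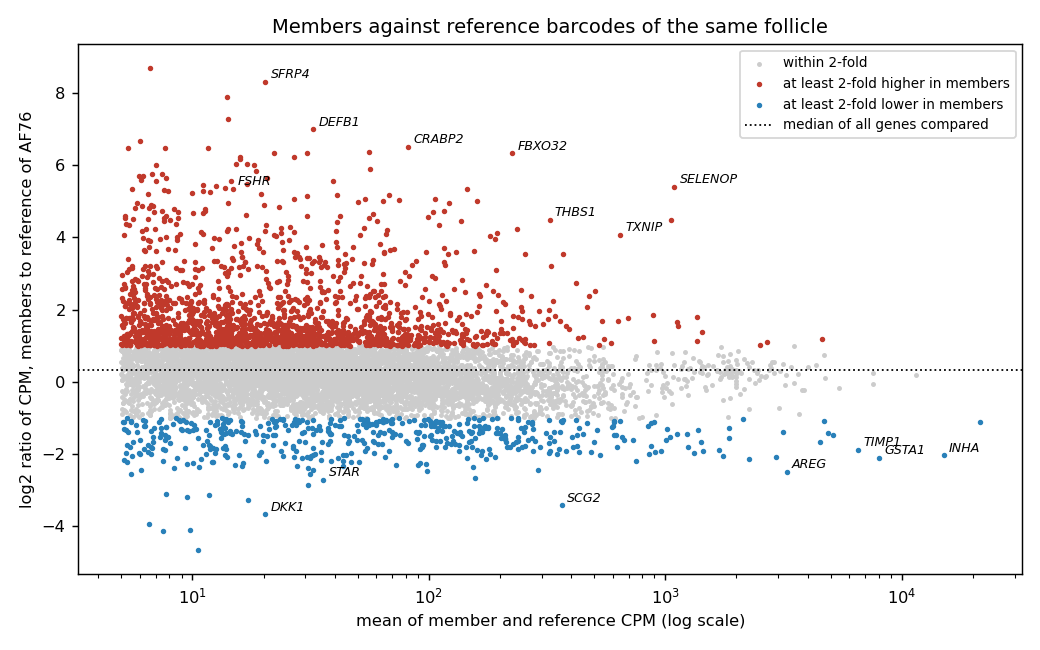
Log2 ratio of CPM, members to reference of AF76, against the mean CPM (log scale) for the 8973 genes compared, with genes at least 2-fold higher in red and at least 2-fold lower in blue; the dotted line is the median of 0.32. SELENOP, at 2135 CPM in members, combined a high level with a high ratio, and INHA was among the most abundant genes that were lower.

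The 4 companions of the label stood far above both references. DEFB1, an epithelial defensin, was at 64.2 CPM in members, 0.504 CPM in the reference and 0.0726 CPM in the AF75 reference, a ratio of 128 to the reference of AF76 (92.9 to 178). With each cell thinned to 5000 UMIs it was found in 6.52% of members against 0.2005% of the reference (8.06% and 0.383% before thinning), so most members had no DEFB1 UMI. Defensins form a family of similar genes and the symbol stands for 2 identifiers, of which ENSSSCG00000029990 was used, so its level is uncertain where reads of copies were split. CRABP2, which carries retinoic acid in the cell, was at 162 CPM against 1.79 and 0.236 CPM. FBXO32 was at 446 CPM against 5.54 and 2.35 CPM and was found in 71.4% of thinned members and 2.33% of the thinned reference (81.1% and 5.04% before thinning). SELENOP was at 2135 CPM against 50.8 and 24.3 CPM and was found in 96.7% of thinned members and 15.3% of the thinned reference (99.1% and 32.4% before thinning).

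Of the genes with a mean CPM of at least 20, SFRP4, a secreted WNT antagonist, had the largest ratio. It was at 40.5 CPM in members and 0.129 CPM in the reference (315-fold, 175 to 623), but in 5.51% of thinned members only. Others among the largest were expressed by more of the members. MITF, a transcription factor of lysosomal and pigment cell genes, was at 283 against 6.95 CPM and was found in 65.7% of thinned members and 3.30% of the thinned reference (76.5% and 7.495% before thinning). TESC was at 207 against 6.15 CPM (56.9% of thinned members), CCDC3 at 145 against 4.47 CPM (43.9%), and SLC40A1, the iron exporter ferroportin, at 111 against 1.88 CPM (36.3%). APOD, a lipocalin, and RGS4, an inhibitor of G protein signals, differed between the references too: APOD was at 105 CPM in members, 3.12 in the reference and 39.2 in the AF75 reference, and RGS4 at 131, 3.63 and 33.4 CPM.

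The granulosa identity list held genes of both directions. Of its 13 genes compared, 5 were at least 2-fold higher and 5 lower (4 and 5 on the median scale). Over all genes compared 18.7% were higher and 5.41% lower, and 11.8% and 9.34% on the median scale. FSHR, the receptor of follicle-stimulating hormone, was at 28.9 CPM (107 UMIs) in members, 0.707 CPM in the reference and 1.78 CPM in the AF75 reference, a ratio of 40.8 (29.8 to 56.4). WT1, a transcription factor of early granulosa cells, was at 32.4 against 1.33 CPM, AMHR2, the receptor of anti-Müllerian hormone, at 24.3 against 3.97 CPM, and INHBB, the beta B subunit of inhibin and activin, at 99.9 against 17.4 CPM and 68.6 CPM in the AF75 reference. NR5A1 was at 19.7 against 9.50 CPM, and this gene passed 2-fold on the CPM scale but not on the median scale. INHA was lower at 5910 against 24118 CPM (4.08-fold, 4.03 to 4.14) but was found in 100% of thinned members. Without the group 4 described below, INHA lay 11.5-fold under the reference. SERPINE2, CDH2, NR5A2 and the aromatase CYP19A1 were lower too, the last at 15.7 against 32.5 CPM. AMH had 0 UMIs in members and in both references. FOXL2 and HSD17B1 were not analysed here.

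**Figure D3:**
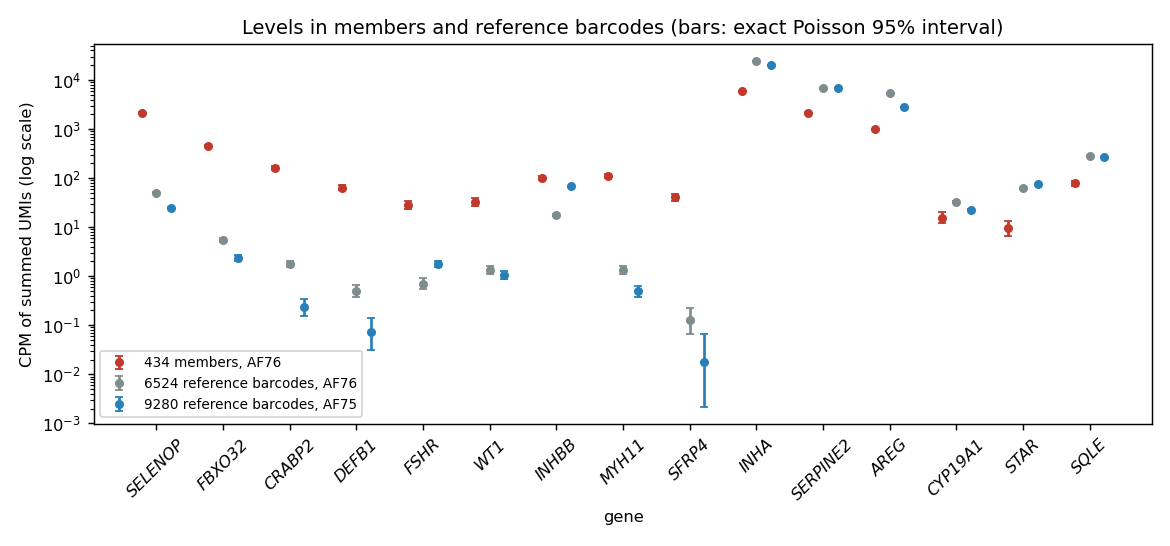
CPM of 15 genes (log scale) in the 434 members, the 6524 reference barcodes of AF76 and the 9280 of AF75, with exact Poisson 95% intervals. SELENOP, FBXO32, CRABP2, DEFB1, FSHR, WT1, INHBB, MYH11 and SFRP4 were higher in members than in both references, and INHA, SERPINE2, AREG, CYP19A1, STAR and SQLE lower.

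All 8 genes of the mural granulosa list were at least 2-fold lower in members, on both scales. Over all genes compared 5.41% were lower, and 9.34% on the median scale. APOA1 of that list was at 2771 CPM in the cumulus-like and 962 CPM in the mural-like set of AF76, both described below. In AF75 these sets had it at 10242 and 1379 CPM, so its lower level in members is not read as loss of a mural trait. AREG was at 987 CPM against 5534 in the reference, IL33 at 720 against 2656, LOX, which crosslinks collagen, at 161 against 602, and TGFB3 at 33.5 against 162. Of the cumulus list 3 genes were compared: THBS1, a matrix glycoprotein, was higher at 620 against 27.7 CPM, TNFAIP6, which crosslinks hyaluronan, was lower at 73.4 against 227 CPM (11.7 CPM without the group 4 described below), and the proteoglycan VCAN stood at 545 against 413 CPM. These 3 genes differed between the references too, the AF75 reference having THBS1 at 361, TNFAIP6 at 921 and VCAN at 2049 CPM. Other genes of the ovulatory list were lower, with PGR, the progesterone receptor, at 65.3 against 284 CPM and the EGF-like ligand EREG at 3.51 against 16.6 CPM, while RUNX2 was higher at 137 against 21.4 CPM. In hyaluronan turnover 5 genes besides CEMIP were compared; CD44, the hyaluronan receptor, was lower at 153 against 558 CPM, and HYAL2 stood at 118 against 98.4 CPM.

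Steroid and cholesterol genes were mostly lower. Of 19 cholesterol synthesis genes, 18 were at least 2-fold lower (19 on the median scale) and none was higher. SQLE, which oxidises squalene, was at 78.3 against 281 CPM and IDI1 at 116 against 434 CPM. Of the lipid genes the cholesterol exporter ABCG1 was higher at 10.5 against 0.118 CPM. APOE and NPC2, which carry lipids outside the cell and out of lysosomes respectively, were higher at 98.8 against 17.2 and 218 against 36.6 CPM. Of 10 steroid synthesis genes, 5 were lower (6 on the median scale) and 2 higher. Over all genes compared 5.41% were lower and 18.7% higher, and 9.34% and 11.8% on the median scale. The count of 2 higher is near the 18.7% and reads as no result. STAR, which moves cholesterol into mitochondria, was at 9.45 against 62.0 CPM and SCARB1, a lipoprotein receptor, at 400 against 1518 CPM. CYP11A1, which makes pregnenolone, stayed within 2-fold at 2341 against 1668 CPM.

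Genes tied to FOXO factors and atresia were mostly higher, 10 of 14 on both scales, with 1 lower. TXNIP, an inhibitor of thioredoxin, was at 1212 against 72.3 CPM, FOXO1 itself at 472 against 40.3 CPM, KLF9 at 42.7 against 2.59 CPM, BCL2L11, which promotes apoptosis, at 51.8 against 4.93 CPM, and the chaperone CLU at 794 against 153 CPM. SESN1 was lower at 63.2 against 142 CPM. FOXO1 was found in 82.7% of thinned members and 17.3% of the thinned reference (92.2% and 39.2% before thinning). FBXO32 belongs to this list and to the label, so that gene is counted in both. In the apoptosis list 4 of 16 genes were higher and none lower, and 1 of the 4 passed 2-fold on the median scale. Autophagy genes had 4 of 21 higher and 2 lower, with none of the 4 past 2-fold on the median scale. The higher counts of the apoptosis and autophagy lists are near the 18.7% of all genes compared that were higher, and read as no result about these lists.

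Of 10 retinoid genes compared, 6 were at least 2-fold higher on both scales and none lower, the 6 counting CRABP2, which also belongs to the label. Besides CRABP2 these included DHRS3, which reduces retinal, at 76.4 against 4.21 CPM, the receptor STRA6 at 13.8 against 3.05, and the nuclear receptors RARA at 25.6 against 7.72 and RXRA at 21.1 against 7.39 CPM. Among selenoproteins and antioxidant enzymes, 7 of 28 were higher and 4 lower, and on the median scale 6 were higher and 7 lower. Over all genes compared the shares were 18.7% and 5.41%, and 11.8% and 9.34% on the median scale. HMOX1, which degrades haem, was at 235 against 7.67 CPM and SOD2 at 71.8 against 12.5 CPM, and the transferase GSTA1 was lower at 3040 against 13056 CPM. LRP8, a receptor of selenoprotein P, was lower at 7.29 against 33.5 CPM.

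WNT and TGF-beta components differed in both directions. Of 15 WNT genes 8 were higher (6 on the median scale), with TCF7L2 at 63.7 against 10.9 CPM and the receptor LGR4 at 113 against 24.2 CPM, and the antagonist DKK1 was lower at 2.97 against 37.6 CPM (11 UMIs in members). RSPO3, a WNT agonist outside that list, was lower at 42.7 against 272 CPM. Of 16 TGF-beta and BMP genes 6 were higher and 2 lower (4 lower on the median scale), with ID3, a target of BMP signals, at 341 against 20.9 CPM and TGFB1 at 36.7 against 6.003 CPM, and with TGFB3 and the activin-binding FSTL3 lower, the latter at 158 against 391 CPM. Of 11 genes of the cyclin D and CDK inhibitor list, 5 were higher on both scales and none lower. The CDK inhibitor CDKN1C was at 79.1 against 8.17 CPM and CDKN1B at 80.4 against 31.02 CPM. The cyclins CCND2 and CCND3 were at 28.1 against 9.27 and 36.4 against 5.92 CPM. Of 10 cell division genes 6 were higher (5 on the median scale) and none lower. That list summed to 263 CPM in members, 164 CPM in the reference and 270 CPM in the AF75 reference. Some division genes lay in few members. In the group 2 described below, TOP2A was at 112 CPM against 2.19 CPM in the other members, from 7 barcodes. UBE2C was at 72.4 against 0.365 CPM there, from 8 barcodes, and CENPF at 93.1 against 6.21 CPM, from 14 barcodes. In the interferon list 4 of 14 were higher and 1 lower (2 and 2 on the median scale). IFITM3 led at 215 against 16.6 CPM, and ISG15 was lower at 70.2 against 165 CPM. Over all genes compared 18.7% were higher and 5.41% lower, and 11.8% and 9.34% on the median scale. The interferon counts on the median scale are near these shares and read as no result about that list. None of the 13 mitochondrially encoded genes passed 2-fold.

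**Figure D4:**
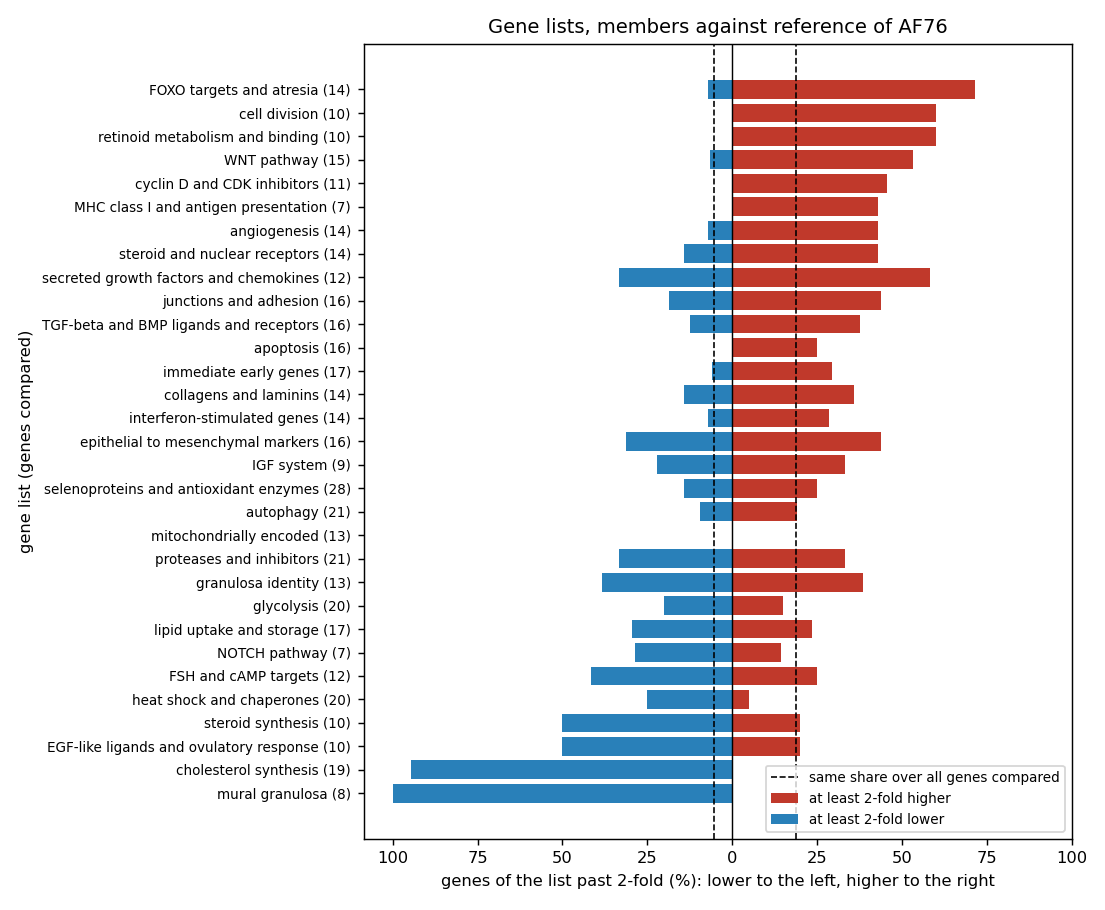
Share of the compared genes of each list (7 or more compared, number in brackets) that were at least 2-fold higher (right) or lower (left) in members, with dashed lines at the share over all genes, 18.7% and 5.41%. Mural granulosa and cholesterol synthesis genes lay at the lower end, and FOXO and atresia genes at the upper end.

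Markers of other cell types were checked in the members. Of the smooth muscle and pericyte list 4 of 5 genes compared were higher, against 18.7% of all genes compared. MYH11, smooth muscle myosin, was at 111 against 1.34 CPM and TAGLN at 222 against 8.35 CPM. ACTA2 was at 52.4 against 1.58 CPM and PDGFRB at 41.6 against 2.50 CPM. MYH11 was found in 28.6% and ACTA2 in 6.27% of thinned members. The fifth gene compared, the pericyte gene RGS5, was at 396 against 596 CPM, short of 2-fold, and made up most of the sum of the list in the reference. ACTG2, a smooth muscle actin outside the list, was 4.95-fold lower at 24.3 against 120 CPM. The 9 genes of this list summed to 831 CPM in members, 612 CPM in the reference and 890 CPM in the AF75 reference. All 3 stromal genes compared were higher: DCN was at 14.8 against 0.611 CPM, LUM at 13.8 against 0.289 and FBLN1 at 211 against 20.99 CPM, the list of 10 summing to 257 CPM in members, 26.1 CPM in the reference and 39.8 CPM in the AF75 reference, with PDGFRA and MFAP5 at 0 in members. Leukocyte markers summed to 14.8 CPM in members and 22.9 CPM in the reference, with PTPRC at 0 in members. Of 2 endothelial genes compared, VWF was higher at 30.2 against 0.461 CPM and EGFL7 lower at 9.18 against 46.3 CPM. PECAM1, under the CPM limit of the comparison, was at 2.97 against 6.03 CPM, and CDH5 was at 0 in members. The endothelial list summed to 46.7 CPM in members, 57.4 CPM in the reference and 49.6 CPM in the AF75 reference. Of 9 oocyte markers 8 were at 0 in members. Of the surface epithelium list 2 genes were compared, of which KRT8 was higher at 15.1 against 0.172 CPM and EPCAM, an epithelial adhesion protein, lower at 2.97 against 10.4 CPM. KRT18 was at 0 in members, and the list summed to 20.5 CPM in members and 10.8 CPM in the reference. Of 5 theca genes compared 2 were higher and 2 lower, the list summing to 315 CPM in members and 614 CPM in the reference. HBB, haemoglobin beta, was at 356 against 22.9 CPM, but 1274 of its 1320 UMIs in members came from 1 barcode and 1144 of 2132 in the reference from another, and without the 2 highest barcodes of each group it stood at 12.0 and 10.2 CPM. The part of other cell types in these values was not tested.

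Members differed among themselves. Clustering of the members alone gave 5 groups, numbered by size. They are described here without a test, since the same genes made the groups. CEMIP and CCDC80 were inversely related across the 399 thinned members (Spearman rho −0.39), where a fixed total and the rule on their sum bear on the value. Group 1 (135 barcodes) had CCDC80 at 1738 and CEMIP at 465 CPM, with INHBA, the beta A subunit, at 819 CPM against 244 CPM in the other members and the matrix gene CTGF at 550 against 129 CPM. Group 2 (134 barcodes) had THBS1 at 1291 against 383 CPM and MITF at 485 against 211 CPM. This group also led for TOP2A, at 112 CPM, but those UMIs came from 7 barcodes of the 134, and 7 had 5 or more UMIs of TOP2A, UBE2C, CENPF, TPX2 and CDK1. Group 3 (86 barcodes) had most CEMIP, at 3046 CPM, with CRABP2 at 468 against 104 CPM, the galectin LGALS3 at 687 against 157 CPM and VWF at 83.1 against 20.2 CPM.

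Group 5, the smallest at 27 barcodes, held most of the DEFB1. It carried 184 of the 238 DEFB1 UMIs of members, 696 CPM against 15.7 CPM in the other members, and 14 of its 27 barcodes had one. It had CCDC80 at 2790 and CEMIP at 106 CPM. WT1 was at 132 against 24.7 CPM, FSHR at 75.6 against 25.3 CPM, KRT8 at 147 against 4.94 CPM, ACTA2 at 435 against 23.0 CPM, SFRP4 at 306 against 20.1 CPM and the retinol receptor STRA6 at 113 against 6.10 CPM. So 115 of the 194 ACTA2 UMIs and 81 of the 150 SFRP4 UMIs of members lay in this group, whereas SELENOP, at 2045 against 2142 CPM, was near that of the other members.

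Group 4 (52 barcodes) stood apart by depth. Its median was 17667 UMIs, against 6445.5 to 8901 in the other 4 groups, and 37 of its 52 barcodes were among the 6.9% of AF76 barcodes with the highest Scrublet doublet score, the only members that were. Its INHA, at 17914 CPM, AREG, at 3457 CPM, and GSTA1, at 9434 CPM, lay between those of the other members (2094, 202 and 1008 CPM) and of the reference (24118, 5534 and 13056 CPM). SELENOP was at 632 CPM and FBXO32 at 126 CPM in this group. The rule removed no doublets, and whether these barcodes held 2 cells was not tested. Without them 2071 genes were at least 2-fold higher (22.9% of 9031) and 724 lower (8.02%), which included 1667 of the 1679 and 472 of the 485 genes above. INHA then stood at 11.5-fold below the reference, AREG 27.4-fold and GSTA1 12.95-fold below, and FSHR was 48.8-fold above. TNFAIP6 had 239 of its 272 member UMIs in this group and lay 19.4-fold below the reference without it, against 3.10-fold with it. Other lower genes lay further below the reference as well, among them RSPO3 (27.3-fold), CD44 and STAR (both 13.4-fold), TGFB3 (12.3-fold), IL33 (11.08-fold), PGR (10.5-fold), SCARB1 (10.4-fold), LRP8 (9.42-fold), IDI1 (8.77-fold), SQLE (7.25-fold), LOX (6.74-fold) and SERPINE2 (5.73-fold). EREG and DKK1 were left with 2 and 3 UMIs. HBB was at 13.2 CPM without group 4, under the 22.9 CPM of the reference.

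**Figure D5:**
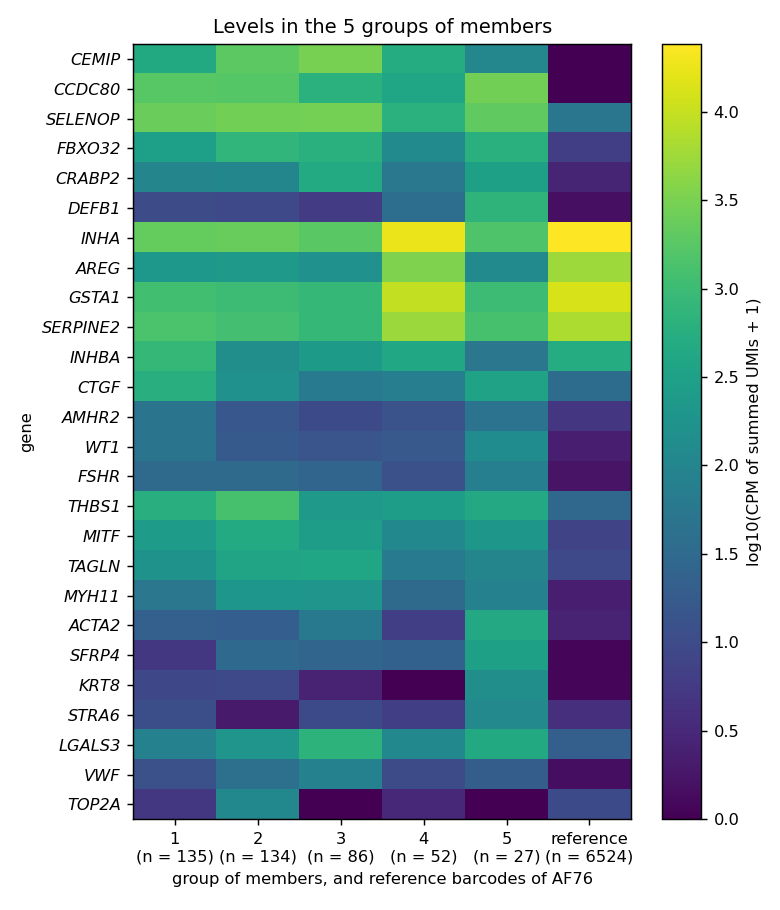
Colour gives log10 of CPM + 1 for 26 genes (rows) in the 5 groups of members and the reference of AF76 (columns). Group 4 carries INHA, AREG, GSTA1 and SERPINE2 near the reference, and DEFB1, KRT8, ACTA2, SFRP4 and STRA6 are highest in group 5.

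The 10 genes of largest variance to mean ratio across thinned members were HBB, PENK, MSMB, GCG, INHA, GSTA1, AREG, ENSSSCG00000014540, ACTA2 and CTSL, against a median of 1.08 over 6279 genes. Several of them set group 4 apart from the other members. INHA was at 17914 against 2094 CPM, GSTA1 at 9434 against 1008, AREG at 3457 against 202 and GCG at 609 against 26.7 CPM. HBB came mostly from 1 barcode, and ACTA2 was highest in group 5. The ranking was not repeated without group 4. PENK, the enkephalin precursor, was found in 23.1% of thinned members with up to 145 UMIs in 1 cell, and MSMB in 87.2% with up to 249.

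Members were also set beside other granulosa cells of AF76. The cumulus-like set was the tenth of the reference with the highest summed CPM of VCAN, TNFAIP6, THBS1, SHAS2 and ARPP21, and the mural-like set the tenth with the highest of IL33, ENPP2, TGFB3 and LIMCH1. Across 8966 genes the members' profile had a Spearman rho of 0.882 with the cumulus-like set, 0.865 with the reference and 0.849 with the mural-like set, a description over genes of 1 library. Members exceeded the cumulus-like set at least 2-fold in 1434 genes and lay at least 2-fold under it in 459, against 1833 and 534 for the mural-like set. SELENOP was at 102 CPM in the cumulus-like and 27.4 CPM in the mural-like set, FBXO32 at 16.1 and 2.48 CPM, and FSHR at 0.680 and 0.516 CPM, all under the members. INHA was at 22378 and 24218 CPM in these sets, above the members and near the 24118 CPM of the reference. The cumulus-like set of AF76 also had AREG at 4720 and GSTA1 at 12349 CPM, against 5534 and 13056 CPM in the reference. The cumulus-like set of AF75 had INHA at 8897, AREG at 306 and GSTA1 at 3523 CPM. The AF76 set thus kept much of the reference profile, and its rho gives no likeness to cumulus cells as such. The order of the 2 sets was not the same in AF75. There the members' rho was 0.856 with the cumulus-like and 0.849 with the mural-like set, but members exceeded the cumulus-like set at least 2-fold in 2056 genes and the mural-like set in 1706, and lay at least 2-fold under them in 427 and 577. The cumulus-like set of AF75 had INHBB at 387, APOD at 209 and RGS4 at 227 CPM, above the members' 99.9, 105 and 131 CPM. THBS1, which helped to choose that set, was at 2479 CPM in it. SELENOP, FBXO32 and FSHR were at 5.92, 9.60 and 11.9 CPM in that set, under the members.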

How the data were processed

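Granulosa cells of 2 follicles of 1 pig were profiled, 1 library each. The deposited matrices hold raw UMI counts per gene and barcode, which the authors made with Cell Ranger (header version 6.0.2) on Sscrofa11.1. The annotation release is not given in the sources used here. Barcodes with 2000 to 5000 genes and under 7% mitochondrial UMIs were kept. Counts were summed per group and divided by the group's total (CPM). Ratios were compared where the mean CPM was at least 5, and past 2-fold was the limit. No test was run, since each follicle is 1 library. Intervals are 95% exact ones (Poisson, Clopper-Pearson, conditional binomial), and a count of 0 allows 3 counts. Genes were named as the label's markers, as list genes past 2-fold (the 6 largest each way per list), as the 20 largest and 20 smallest ratios at a mean CPM of at least 20, and as the 10 of largest variance to mean ratio; VCAN, INHBA, CYP11A1, HYAL2, NUPR1 and RGS5, and genes given at 0, fall outside that rule and were chosen after their values were seen. The members and lists were chosen with earlier results of these data known. Members were clustered (Leiden, resolution 0.5, 20 components, 2000 variable genes, 15 neighbours). Doublets were not removed, and an alternative left out the 6.9% of barcodes with the highest Scrublet score. Other alternatives changed the UMI limit, the gene limits, the depth, the scaling and the reference. Python 3.11.15, numpy 2.4.6, scipy 1.17.1, pandas 2.3.3, scanpy 1.11.5 and matplotlib 3.10.9 were used. Promoters came from RefSeq, where 38 of 42 leading genes matched. Some genes of the lists are counted but not reported here by name.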

Additional observations from a re-analysis of the deposited data

Results flagged for a closer look

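Barcodes outside the limits were not used in the comparisons. In AF76, 197 of 7705 such barcodes (2.56%, 2.22 to 2.93%) had 5 or more UMIs of CEMIP and CCDC80, against 1 of 4927 in AF75. Of the 197, 168 had under 2000 genes (median 3181 UMIs), 21 had over 5000 genes and 8 had a high mitochondrial share.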

How the results depend on the processing

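No paired analysis was possible because each follicle gave 1 library and the labels number no replicates. The members' share of AF76 was 6.67% with a limit of 3 UMIs, 3.86% with a limit of 10, 2.63% with at least 1 UMI of each gene, 4.62% within 500 to 6000 genes and 4.23% with cells thinned to 5000 UMIs. Scaling by the median ratio gave 1063 genes at least 2-fold higher and 838 lower, and a mean CPM of at least 20 left 855 higher. Of 237 named genes past 2-fold, between 205 and 237 stayed past it in the same direction under each of 19 alternatives. The fewest, 205, stayed against reference barcodes nearer the members in depth, between their lower and upper quartiles of UMIs. There 1365 of 9005 genes were at least 2-fold higher and 443 lower. CRYAB, at a log2 ratio of 1.11, turned to -0.13 with a limit of 10 UMIs, -0.42 with 5 or more per 10000 UMIs, -1.25 with both genes required and -0.38 against reference barcodes between the members' lower and upper quartiles of UMIs. HBB, at 3.96, turned to -0.83 without the barcodes of highest Scrublet score. The cell division genes BIRC5, CENPF and TPX2, at 1.13, 1.57 and 1.33, turned to -0.15, -0.016 and -0.10 against the AF75 reference. Chosen after seeing the data, leaving out group 4 gave HBB -0.80 and CRYAB -0.27, and cells under 10000 UMIs gave CRYAB -1.50. Beyond the values shown, the cause was not tested. At the members' 3704535 UMIs a count of 0 allows up to 0.810 CPM.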
